A study of Mus musculus with 9 samples.

Results

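Cytosolic ribosomal protein genes encode the proteins that, with ribosomal RNA, build the large and small subunits of the ribosome outside mitochondria. They were chosen by name: every gene symbol that begins with Rpl or Rps and a digit, together with Rplp0, Rplp1, Rplp2 and Rpsa, without the Rps6k kinases. The rule took 94 of the 24411 rows of the deposited tables. By their names, 77 are canonical ribosomal protein genes (46 of the large subunit and 31 of the small), 8 are paralogs whose symbol ends in l or l1, and 8 are near-copies of another gene (symbols ending in rt or holding -ps). The last is Rps19bp1, which binds a ribosomal protein and is not part of the ribosome itself. Counted with paralogs and copies, 56 rows belong to the large subunit and 37 to the small.

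RNA was measured by stranded, single-end sequencing in 9 libraries of EB5 cells, a mouse embryonic stem cell line derived from male E14tg2a cells of 129Ola background, which carries an Oct3/4-IRES-BSD-pA allele over a wild-type one in all 3 groups. The groups were Parental cells, Zfp352-KO cells, in which CRISPR-Cas9 had been used to delete the zinc finger gene Zfp352, and Zfp352/Zfp353-DKO cells, in which both Zfp352 and Zfp353 had been targeted. Each had 3 libraries, and all cells grew on gelatin in serum with leukemia inhibitory factor. Whether the libraries of a genotype came from separate clones or cultures is not given in the sources used here, so the p-values below reflect the scatter of these libraries alone, which could be purely technical, and genotype and clone cannot be told apart.

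Ribosomal proteins are made in near-equal amounts, assembled with ribosomal RNA in the nucleolus, and degraded when left unassembled. Their messenger RNAs are short and very abundant in growing cells, and most begin with a run of pyrimidines (the TOP motif) through which mTORC1 and LARP1 set their translation. MYC is known to raise the transcription of many of them, and embryonic stem cells, which divide fast, are rich in them.

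The libraries held 16599004 to 22044820 expected counts, an estimate of reads per gene that shares out reads matching several genes. Zfp352 was the check of the labels: its TPM (a level normalized for transcript length and library size) was 1.76 to 2.05 in Parental, 0.16 to 0.41 in Zfp352-KO and 0.04 to 0.14 in Zfp352/Zfp353-DKO libraries. It fell by 2.65 on the log2 scale in Zfp352-KO (edgeR's quasi-likelihood test, adjusted p = 6.1e-05) and by 4.64 in Zfp352/Zfp353-DKO (adjusted p = 8.0e-07). Zfp353 was not analysed here. Pluripotency markers fit the cell label, with a summed TPM of the 7 genes listed between 3670 and 3890 in every library, none of them called lower and 1 called higher in Zfp352/Zfp353-DKO. Markers of other cell types moved with genotype. The summed TPM of 8 fibroblast-type markers was 349 to 363 in Parental, 250 to 264 in Zfp352-KO and 206 to 222 in Zfp352/Zfp353-DKO libraries, with 7 of the 8 called lower in each mutant, and 6 trophectoderm markers went from 317 to 379 in Parental to 212 to 222 and 181 to 199, with 4 of 6 called lower in each. Primitive endoderm markers summed to 169 to 173, 141 to 155 and 132 to 142 TPM, with 1 of 6 called lower and, in Zfp352/Zfp353-DKO, 1 called higher. Neural markers summed to 21.6 to 22.4, 19.8 to 20.8 and 16.4 to 17.5 TPM, with 1 of 3 called lower in each. No marker was at 0 in all libraries, but Col3a1, Gata3, Gata6, Sox17 and Sox1 had a mean TPM under 1. The part of these shifts in the results below was not tested. In bulk RNA, fewer cells of a type and less RNA per cell cannot be told apart.

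Ribosomal protein messages were a large part of the RNA of these cells: the 94 rows held 8.67 to 9.89% of the expected counts and 24.0 to 25.7% of the TPM. Of the 10 rows with the highest TPM 6 were members, of the top 50 there were 33 and of the top 100 there were 68. All 94 passed the filter on low counts and are among the 14300 genes tested. The median level was 2812 TPM over the 94 rows, against 13.2 TPM over all tested genes. Their transcripts were short, with a median length of 695.5 bases against 2803, and 74 of 94 were under 1000 bases.

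**Figure D1:**
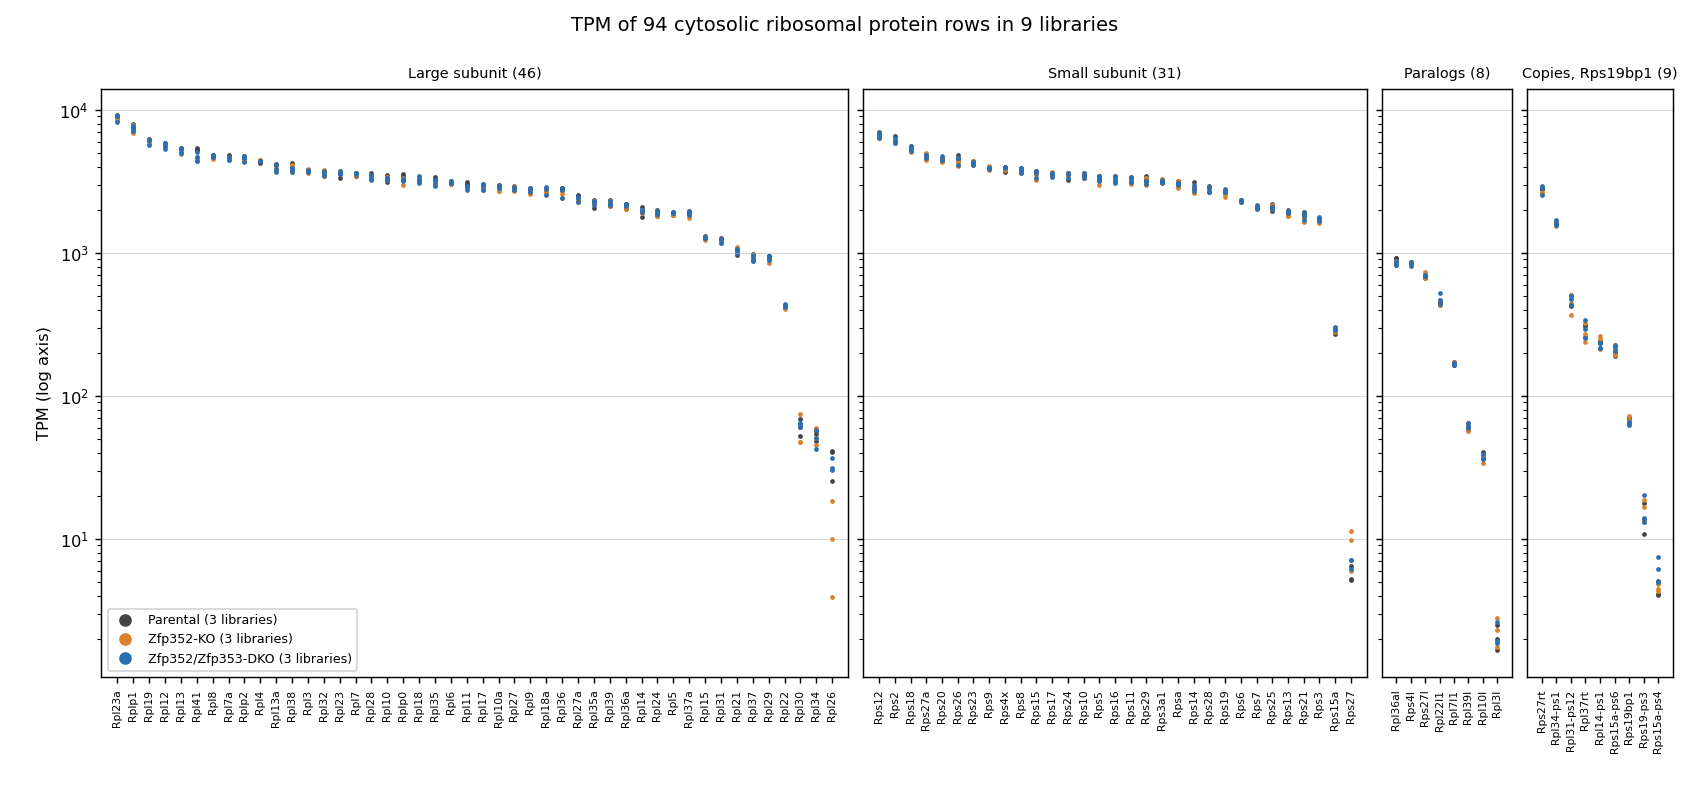
TPM of each of the 94 rows (log axis) in each of the 9 libraries, coloured by genotype, with canonical genes of each subunit, paralogs, and copies with Rps19bp1 in separate panels and sorted by mean TPM. Most canonical genes sit above 1000 TPM with the 9 points nearly on top of each other, while Rpl26, Rpl30, Rpl34 and Rps27 sit far below.

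The most abundant messages by TPM were those of Rpl23a, a protein at the mouth of the exit tunnel, at 8740 TPM on average over the 9 libraries (8243 to 9145). Next came Rplp1, a protein of the stalk that recruits elongation factors, at 7467, then Rps12 of the small subunit at 6670. Rps2, near the messenger RNA entry of the small subunit, reached 6111 and Rpl19 of the large subunit 6028. The per-library ranges of these 5 genes overlapped between neighbours from Rpl23a to Rpl19 except between Rpl23a and Rplp1. The lowest were Rpl3l at 2.15, Rps15a-ps4 at 5.05, Rps27 at 7.13, Rps19-ps3 at 15.3 and Rpl26 at 26.4 TPM. The range of canonical genes was narrower once rows that share sequence with another row were set aside. The 63 left ranged from 422 to 8740 TPM, with quartiles of 2341 and 3880 and a median of 3213. The lowest of these 63 was Rpl22, at 422 TPM. Rps15a, at 290 TPM, is outside that set, and its listed transcript length of 5134 bases enters its TPM as a divisor.

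The spread between libraries of a genotype was small. The SD of log2 CPM (counts scaled to library size) within genotypes had a median of 0.08 over the 94 rows and of 0.10 over all tested genes. Rpl7l1, Rpl4, Rpl15, Rpl3 and Rpl5 varied least, and Rpl26, Rpl3l, Rps27, Rps19-ps3 and Rpl30 varied most. Rpl4, a large-subunit protein that lines the exit tunnel, took the largest number of counts. Its TPM was 4302, 4235 and 4355 in Parental libraries 1 to 3, then 4430, 4408 and 4444 in Zfp352-KO, and 4400, 4392 and 4372 in Zfp352/Zfp353-DKO. Parental libraries were the lowest in TPM, while on counts Rpl4 did not pass the test in Zfp352-KO (log2 fold change 0.00 ± 0.04 (SE), adjusted p = 0.981) or in Zfp352/Zfp353-DKO (-0.01 ± 0.04, adjusted p = 0.92; edgeR's quasi-likelihood test).

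Several rows share sequence with other rows, which limits what their counts can show. A read of 75 bases that fits 2 rows is divided between them by the authors' estimate. Of the 94 rows, 24 share at least a single window of 75 bases with another row of the tables and 70 share none. Rows sharing at least 3% of windows form 15 families. Rpl26, Rps27, Rpl34 and Rpl30 are the canonical genes whose row held the smaller part of its family's counts, and stretches of their coding sequences are shown. Capitals mark the base that differs between gene and copy, all other letters are identical, and the genome is GRCm38, read in the direction of transcription.
Rpl26: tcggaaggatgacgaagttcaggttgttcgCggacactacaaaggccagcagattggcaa
Gm15772: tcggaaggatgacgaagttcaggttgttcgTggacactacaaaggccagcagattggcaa
Rpl34: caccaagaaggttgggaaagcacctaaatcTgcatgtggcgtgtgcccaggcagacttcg
Rpl34-ps1: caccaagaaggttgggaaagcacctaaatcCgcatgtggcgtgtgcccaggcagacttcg
Rpl30: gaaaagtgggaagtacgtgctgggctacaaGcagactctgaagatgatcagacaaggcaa
Gm12191: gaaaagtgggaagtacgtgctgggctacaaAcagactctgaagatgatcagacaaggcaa
Rps27 and Rps27rt, no difference: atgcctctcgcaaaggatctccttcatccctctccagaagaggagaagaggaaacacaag

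Counted from the A of the start codon as position 1, Rpl26 and Gm15772 differ by C177T and T288C over 438 coding bases (99.5% identity). The Gm15772 stretch lies at chr5:3236577-3236636 on the plus strand. The Rpl26 stretch covers positions 147 to 206 and spans an intron in the gene at chr11:68902421-68903216. Rpl34 and Rpl34-ps1 differ by T132C and C318G over 354 bases (99.4%), with the stretches at chr3:130729055-130729114 on the minus strand and chr6:71124711-71124770 on the plus strand. Rpl30 and Gm12191 differ by G96A alone over 348 bases (99.7%), with the stretches at chr15:34442677-34442736 and chr11:49678933-49678992, both on the minus strand. Rps27 and Rps27rt do not differ in any of their 255 coding bases, and the Rps27rt stretch lies at chr9:114982648-114982707 on the minus strand.

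Most of the counts of these families were listed under the copy. Shared windows were only a part of each canonical row: 47.3% for Rpl26, 51.9% for Rps27, 20.8% for Rpl30 and 26.7% for Rpl34. Why the copy held so large a part was not tested. Gm15772 held 99.6% of the Rpl26 family's counts and Rpl26 0.446%, ranging from 0.0637 to 0.699% between libraries. Rps27rt held 99.5% against 0.478% for Rps27, Gm12191 97.2% against 2.84% for Rpl30, and Rpl34-ps1 95.4% against 4.57% for Rpl34. At the level of the row, Gm15772 had 6252 TPM and Rps27rt 2759 TPM, in the range of other canonical genes. In the other families with more than a few percent in a copy, the canonical row held the larger part: 92.03% for Rpl14, 90.2% for Rps15a, 86.4% for Rpl31 and 80.8% for Rpl37. Levels of a single row in these families are therefore uncertain.

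**Figure D2:**
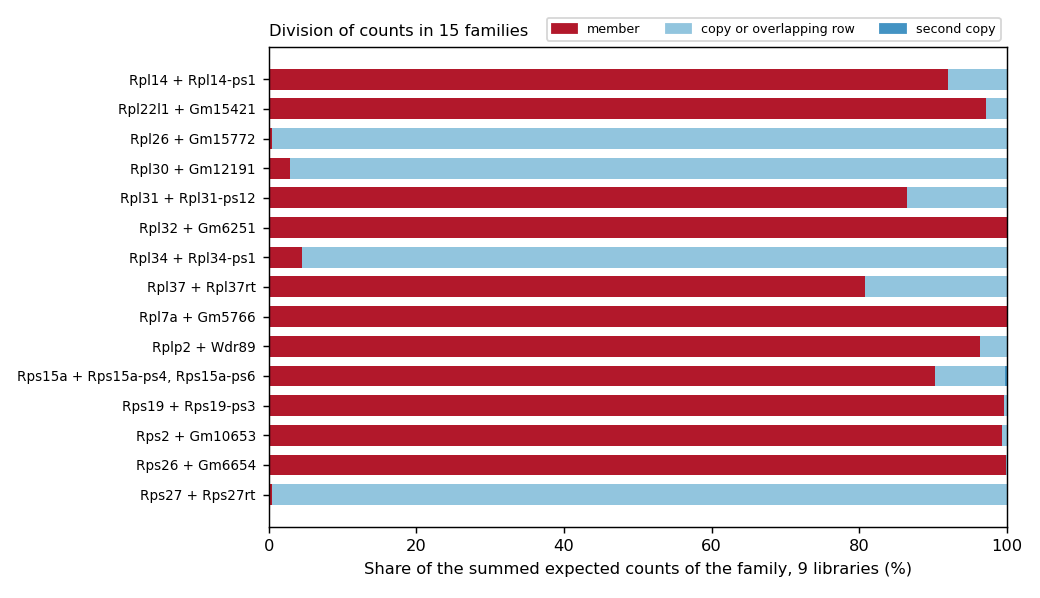
Share of the summed expected counts of each of the 15 families (%), over 9 libraries, held by the member the family is named for and by the rows that share sequence with it. For Rpl26, Rpl30, Rpl34 and Rps27 nearly the whole bar belongs to the copy.

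After deletion of Zfp352, few ribosomal protein genes were called, and their counts are given beside the shares of all tested genes. Of the 94 rows, 0 were called higher and 2 lower on loss of Zfp352 alone (edgeR's quasi-likelihood test, adjusted p under 0.05), where 3.43% of all tested genes were called higher and 3.64% lower. These were Rpl41, a very short basic peptide of the large subunit, and Rpl26, a protein beside the exit tunnel. At an unadjusted p under 0.05 there were 1 higher and 15 lower, against 11.9% of all tested genes in each direction. DESeq2 called these 2 and Rplp0 lower, and 0 higher, where it called 519 of all tested genes higher and 412 lower. In Zfp352/Zfp353-DKO, 0 were called higher and 1 lower (Rpl41), against 3.65 and 4.82% of all tested genes, and 1 higher and 5 lower at an unadjusted p under 0.05, against 12.1 and 12.4%. DESeq2 also called Rpl41 alone, where it called 441 of all tested genes higher and 524 lower. Between the mutants 1 was called higher in Zfp352/Zfp353-DKO (Rpl26) and 0 lower, against 0.014 and 0.0909% of all tested genes, and 2 and 0 at an unadjusted p under 0.05, against 3.04 and 3.38%. DESeq2 called 0 between the mutants, where it called 5 of all tested genes higher and 22 lower. The comparisons with Parental cells share the Parental libraries. Leaving out a library changed these small counts: in Zfp352-KO they ran from 1 (without Parental 1, Parental 2 or Zfp352-KO 2) to 6 (without Zfp352-KO 3). All genes called in the same refits numbered 210 without Parental 1, 382 without Parental 2, 370 without Zfp352-KO 2 and 1371 without Zfp352-KO 3. Without Zfp352-KO 1 the 2 calls were Rpl26, lower, and Rps27, higher (0.87, edgeR, adjusted p = 0.0417).

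Rpl41 (chr10:128548110-128549168 in RefSeq's annotation of GRCm38.p6) had 5231, 5203 and 5411 TPM in Parental, 4406, 4565 and 4689 in Zfp352-KO, and 5104, 4667 and 4371 in Zfp352/Zfp353-DKO libraries. Every mutant library was below every Parental library, and the mutants overlapped each other. The log2 fold change of counts was -0.26 ± 0.06 (SE) in Zfp352-KO (edgeR, adjusted p = 0.0155) and -0.20 ± 0.06 in Zfp352/Zfp353-DKO (adjusted p = 0.0434). Between the mutants it was 0.06 ± 0.06 (adjusted p = 0.949). Leaving out each library in turn gave -0.29 to -0.22 and adjusted p from 0.00216 to 0.0924 in Zfp352-KO, where the call was lost without Parental 1, Parental 2, Zfp352-KO 1 or Zfp352-KO 2. In Zfp352/Zfp353-DKO the values ran from -0.27 to -0.13 and adjusted p from 0.00576 to 0.194, and the call was lost in 6 of 9 omissions (any Parental library, Zfp352-KO 2, Zfp352/Zfp353-DKO 2 or 3) and with the replicate number as a block. Rpl41 shares no window with another row.

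Rpl26 had 25.2, 41.2 and 40.8 TPM in Parental, 9.94, 18.3 and 3.93 in Zfp352-KO, and 30.1, 37.0 and 31.4 in Zfp352/Zfp353-DKO libraries. Each Zfp352-KO library was below all other 6, which overlapped. The log2 fold change was -1.75 ± 0.28 in Zfp352-KO (edgeR, adjusted p = 0.00114) and 1.59 ± 0.29 in Zfp352/Zfp353-DKO against Zfp352-KO (adjusted p = 0.0336). In Zfp352/Zfp353-DKO against Parental it was -0.16 ± 0.24 (adjusted p = 0.731). The expected counts behind these values were all multiples of 20.36, to within 0.00147 of a step: 7, 11 and 10 steps in Parental, 2, 5 and 1 in Zfp352-KO, and 8, 9 and 7 in Zfp352/Zfp353-DKO. With the number of steps in place of the count, adjusted p was 0.0625 in Zfp352-KO and 0.592 between the mutants. Summed with Gm15772, the family's log2 fold change was -0.05 ± 0.05 in Zfp352-KO (adjusted p = 0.612) and 0.03 ± 0.05 between the mutants (adjusted p = 0.974), and neither was called. The call in Zfp352-KO held in all 9 omissions of a library, with values from -2.46 to -1.33. That between the mutants was lost in 5 of 9 (without Parental 3, Zfp352-KO 1, Zfp352-KO 3, Zfp352/Zfp353-DKO 1 or 2), with values from 1.18 to 2.31.

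**Figure D3:**
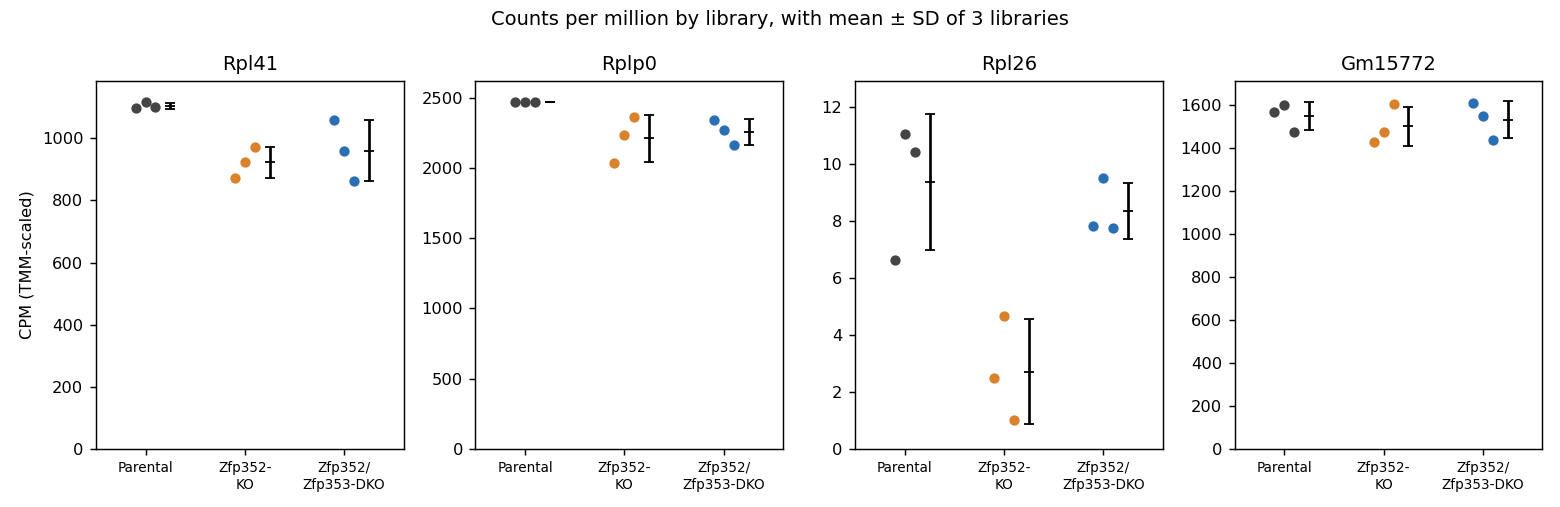
CPM (TMM-scaled) of Rpl41, Rplp0, Rpl26 and Gm15772 in each library, with the mean ± SD of the 3 libraries of each genotype. Rpl41 and Rplp0 have all mutant libraries below all Parental ones, Rpl26 is low in the 3 Zfp352-KO libraries, and Gm15772, which holds 99.6% of the family's counts, overlaps between all genotypes.

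With the counts of each family summed, 1 member row was called lower in Zfp352-KO (Rpl41, adjusted p = 0.0153), 1 in Zfp352/Zfp353-DKO (Rpl41, adjusted p = 0.0431) and 0 between the mutants (edgeR). Of all rows tested in that fit, 3.46% were called higher and 3.65% lower in Zfp352-KO, and 3.73 and 4.86% in Zfp352/Zfp353-DKO. Between the mutants the shares were 0.007 and 0.091%. Beside these shares, none of the 15 families was called in any of the 3 comparisons. The Rps27 family had a log2 fold change of -0.09 ± 0.06 in Zfp352-KO and -0.06 ± 0.06 for Zfp352/Zfp353-DKO. The Rps27 row alone, which lists 0.478% of that family's counts, had 6.40, 5.17 and 5.26 TPM in Parental, 5.91, 9.82 and 11.3 in Zfp352-KO, and 7.08, 6.11 and 7.12 in Zfp352/Zfp353-DKO libraries. Its log2 fold change of 0.66 ± 0.23 in Zfp352-KO did not pass the test (adjusted p = 0.0906). The Rpl34 family had -0.05 ± 0.05 and -0.02 ± 0.05, and the Rpl30 family 0.03 ± 0.06 and 0.00 ± 0.06. The Rpl14 family had -0.04 ± 0.06 and -0.01 ± 0.06, the Rpl31 family -0.08 ± 0.05 and -0.05 ± 0.05, and the Rpl37 family -0.10 ± 0.06 and -0.09 ± 0.06. The Rps15a family had -0.02 ± 0.05 and 0.02 ± 0.05.

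The stalk of the large subunit, made of Rplp0, Rplp1 and Rplp2, had no member called by edgeR as reported. Rplp0, which anchors the stalk to ribosomal RNA, had 3427, 3356 and 3537 TPM in Parental, 2988, 3218 and 3318 in Zfp352-KO, and 3289, 3215 and 3189 in Zfp352/Zfp353-DKO libraries. All mutant libraries lay below all Parental libraries, yet the log2 fold changes of -0.16 ± 0.05 and -0.13 ± 0.05 did not pass the adjusted threshold (edgeR, adjusted p = 0.0652 and 0.127). In Zfp352-KO Rplp0 was called lower by DESeq2 (adjusted p = 0.0434), by edgeR without the filter on low counts (0.0277), and without Zfp352-KO 3 (0.0178) or Zfp352/Zfp353-DKO 3 (0.0403). Rplp1 overlapped between genotypes, at -0.11 ± 0.06 (adjusted p = 0.238) and -0.08 ± 0.06 (adjusted p = 0.389), and was called lower in Zfp352-KO without Zfp352-KO 3 (-0.18, adjusted p = 0.0375). Rpl5 and Rpl11, which carry 5S ribosomal RNA into the large subunit and can bind Mdm2 when unassembled, differed in their values. Rpl11 had -0.12 ± 0.05 in Zfp352-KO and -0.13 ± 0.05 for Zfp352/Zfp353-DKO (adjusted p = 0.123 and 0.104), and Rpl5 -0.03 ± 0.05 and 0.02 ± 0.05 (adjusted p = 0.778 and 0.87). That difference between the genes was not tested.

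Other large negative values in Zfp352-KO included Rpl36 at -0.18 ± 0.07 (edgeR, adjusted p = 0.127) and Rps26 at -0.17 ± 0.07 (adjusted p = 0.113). The Rpl30 row, which lists 2.84% of its family's counts, lay between Rpl41 and Rpl36 and was not called. In all, 14 rows had every Zfp352-KO library below every Parental library in CPM and 0 the reverse, where 14.4% of all tested genes did the first and 13% the second. In Zfp352/Zfp353-DKO there were 9 and 0, against 15 and 13.1% of all tested genes. Between the mutants 3 rows (Rpl26, Rpl39l and Rps15a-ps4) had every Zfp352/Zfp353-DKO library above every Zfp352-KO library, and 0 the reverse, against 5.49 and 5.6% of all tested genes. Summed with its family, Rps15a-ps4 had 0.05 ± 0.05 in that comparison (edgeR, adjusted p = 0.956).

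The proportion of large-subunit to small-subunit messages varied little in size, though the Parental and Zfp352/Zfp353-DKO libraries did not overlap. The ratio of large-subunit to small-subunit counts was 1.505 to 1.531 over the 9 libraries. Parental cells had a mean of 1.52 ± 0.0063 (SD, n = 3), Zfp352-KO cells 1.52 ± 0.0099 and Zfp352/Zfp353-DKO cells 1.51 ± 0.0056. In counts the Parental libraries had 1.519 to 1.531 and the Zfp352/Zfp353-DKO libraries 1.505 to 1.516, and in TPM 1.371 to 1.380 and 1.357 to 1.365. The Zfp352-KO libraries, at 1.508 to 1.528 in counts, overlapped with both. Called rows by subunit were 0 of 37 small-subunit rows in each comparison, and the large-subunit rows named above. The median log2 fold change in Zfp352-KO was -0.08 for the large and -0.07 for the small subunit, and in Zfp352/Zfp353-DKO -0.05 for each.

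The ribosomal proteins together took 9.64, 9.89 and 9.42% of the counts in Parental, 8.67, 9.05 and 9.63% in Zfp352-KO, and 9.72, 9.46 and 8.75% in Zfp352/Zfp353-DKO libraries. The ranges overlapped, and the means were 9.65 ± 0.24% (SD, n = 3), 9.12 ± 0.48% and 9.31 ± 0.50%. The median log2 fold change of the 94 rows was -0.08 in Zfp352-KO and -0.05 for Zfp352/Zfp353-DKO, with 89 and 84 rows below 0, beside medians of -0.01 and 0.00 over all tested genes. The median between the mutants was 0.03. Tested genes under 1000 bases that are no ribosomal protein genes (1007 of them) had medians of -0.12 and -0.10.

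The shares went with a trend of the library with transcript length. In each library, the deviation of each tested gene from its mean over libraries was ranked against transcript length (Spearman's rank correlation over 14300 genes, which are not independent replicates). The coefficient was -0.31, -0.40 and -0.08 in Parental, 0.39, 0.19 and -0.07 in Zfp352-KO, and -0.13, -0.02 and 0.36 in Zfp352/Zfp353-DKO libraries. Parental 2 had the highest share of ribosomal protein counts and the most negative coefficient, and Zfp352-KO 1 the lowest share and the most positive coefficient. Parental 2 had 90 of the 94 rows above their mean over the 9 libraries, while Zfp352-KO 1 and Zfp352/Zfp353-DKO 3 had 6 each. The part of the length trend in the members' shift was not tested.

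**Figure D4:**
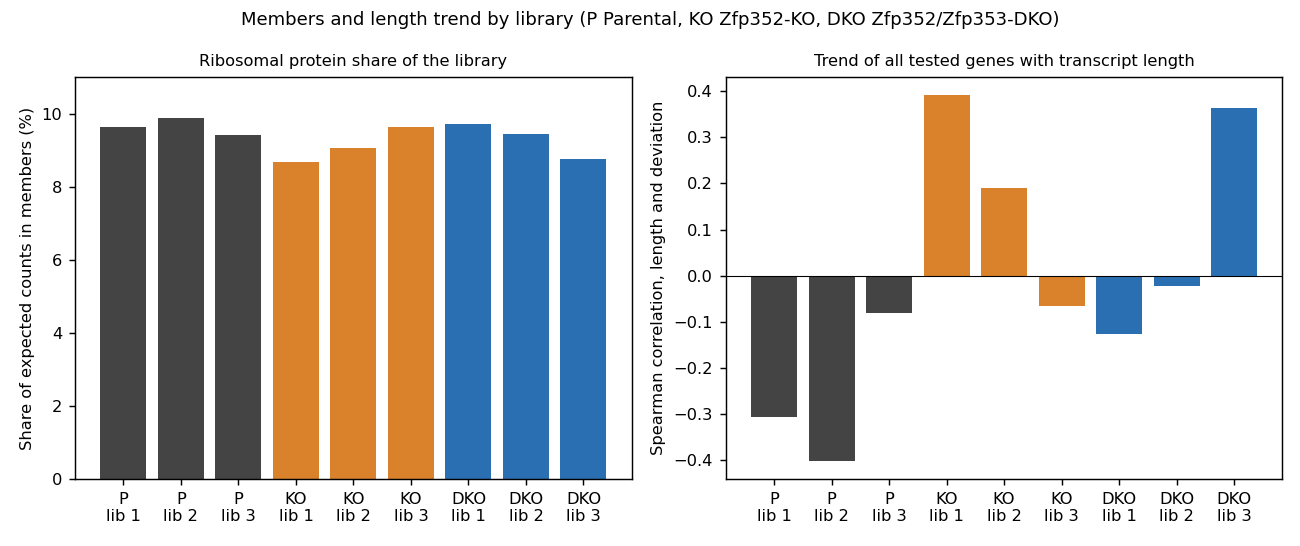
Left, the share of expected counts in the 94 rows (%) in each library. Right, Spearman's rank correlation between transcript length and each tested gene's deviation in that library, where the shortest bars on the left (Zfp352-KO 1 and Zfp352/Zfp353-DKO 3) stand beside the highest positive values on the right.

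When each library's length trend was entered as an offset, the sign of the members' shift turned. The median log2 fold change became 0.04 in Zfp352-KO and 0.05 for Zfp352/Zfp353-DKO, with 71 and 78 of 94 rows above 0. The 1007 other genes under 1000 bases then had medians of -0.003 and -0.002, though the offset is fitted to bring each length near 0. At an unadjusted p under 0.05, 17 rows were higher and 3 lower in Zfp352-KO, against 1386 and 1505 of all 14300 tested genes. In Zfp352/Zfp353-DKO there were 23 and 1, against 1549 and 1790. Rpl41 was then no longer called, at -0.13 ± 0.04 (edgeR, adjusted p = 0.0515) in Zfp352-KO and -0.08 ± 0.04 (adjusted p = 0.173) in Zfp352/Zfp353-DKO. In Zfp352-KO 3 rows were called higher and 1 lower, against 2.13 and 3.2% of all tested genes in that fit. The higher ones were Rpl23, a large-subunit protein that can also bind Mdm2, at 0.14 ± 0.04 (adjusted p = 0.0213), Rps4x, an X-linked small-subunit gene, at 0.12 ± 0.03 (adjusted p = 0.0269), and Rps27 at 0.78 ± 0.22 (adjusted p = 0.0426). Without the offset Rpl23 and Rps4x had 0.04 ± 0.05 and 0.01 ± 0.05. Rpl26 stayed lower, at -1.62 ± 0.27 (adjusted p = 8.4e-04). Its calls with the offset rest on the same counts in steps of 20.36, and that of Rps27 on a row with 0.478% of its family's counts. Steps and summed families were not refitted with the offset. In Zfp352/Zfp353-DKO the offset left 1 called higher, Rps4x at 0.13 ± 0.03 (adjusted p = 0.0115), and 0 lower, against 3.16 and 5.45%. Between the mutants Rpl26 was the single call (1.57 ± 0.28, adjusted p = 0.0125), against 0.042 and 0.252% higher and lower.

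**Figure D5:**
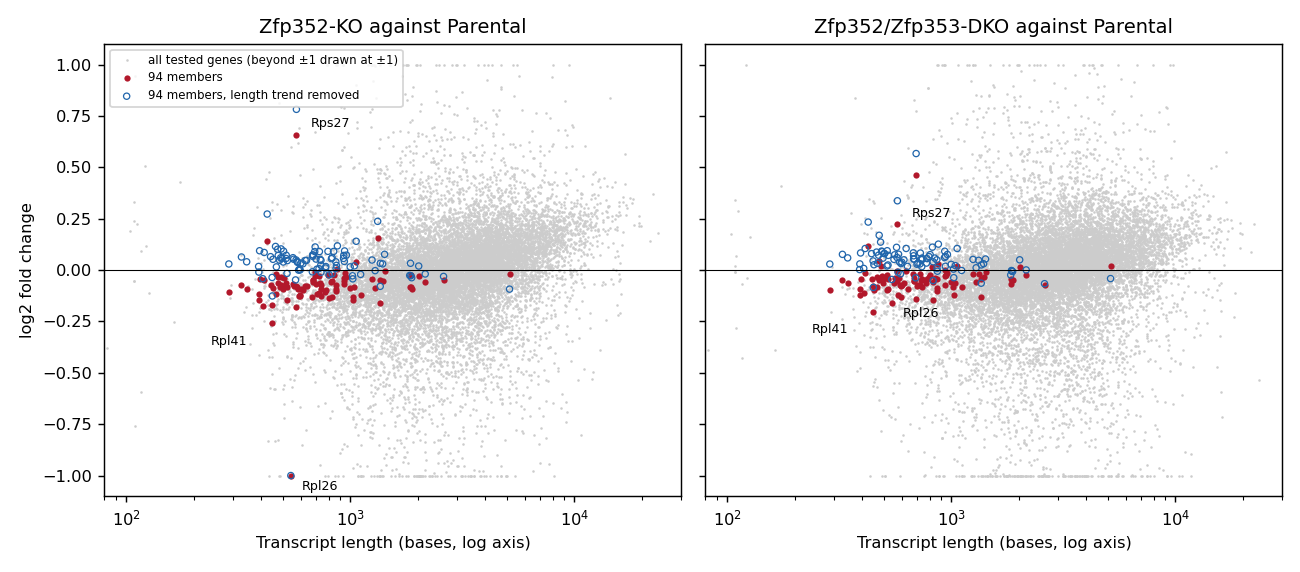
log2 fold change against transcript length (log axis) for all tested genes (grey), the 94 members (red) and the members with the length trend removed (open blue), in each mutant against Parental. Members lie mostly just below 0 and among the short transcripts, and mostly just above 0 once the trend is removed; values beyond 1 or -1 are drawn at that limit.

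Paralogs, which in several cases are known from testis or muscle, mostly stood below their partner genes, by widely differing amounts. None of the 8 was called in any comparison. Of all tested genes, 3.43% were called higher and 3.64% lower for Zfp352-KO against Parental. The shares for Zfp352/Zfp353-DKO were 3.65 and 4.82%, and between the mutants 0.014 and 0.0909%. At such shares, 8 rows are too few for an absence of calls to tell much. Rpl22l1 was the exception in level: Parental libraries had 106 ± 1.96% (SD, n = 3) of the TPM of Rpl22, Zfp352-KO libraries 106 ± 3.02% and Zfp352/Zfp353-DKO libraries 112 ± 11.7%. Rpl36al stood at 38.8 to 42.1% of Rpl36a over the 9 libraries, Rps27l at 23.6 to 27.0% of Rps27rt and Rps4l at 20.8 to 23.7% of Rps4x. Rpl7l1 stood at 4.53 to 5.02% of Rpl7, and Rpl10l at 1.04 to 1.29% of Rpl10. Rpl39l had 2.77 ± 0.093% (SD, n = 3) of the TPM of Rpl39 in Parental libraries, 2.59 ± 0.088% in Zfp352-KO and 2.81 ± 0.17% for Zfp352/Zfp353-DKO. Rpl3l, known for striated muscle, was at 0.0436 to 0.0729% of Rpl3, the lowest ratio. The Rpl22l1 level in the 3 Zfp352/Zfp353-DKO libraries was 437, 470 and 521 TPM, which overlapped with the 428 to 466 of Zfp352-KO, and its log2 fold change against Parental was 0.05 ± 0.06 (edgeR, adjusted p = 0.668).

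Promoter sequence was available from RefSeq for 68 of the member genes, in 80 windows of 250 bases before to 50 after a start. The pyrimidine run CTTTC, searched on the coding strand from 50 bases before to 50 after the start, was in 48.8% of member windows and 12.8% of 32851 windows of all genes. On both strands it was in 58.8 and 23.4%. The search was not anchored at the start, so it does not show which messages begin with such a run. The ETS-type motif CCGGAAG, on both strands of the whole window, was in 33.8 and 8.86%, and TATAAA within 50 bases before the start in 1.25 and 2.63%. Pieces from 40 bases before the start to 20 after it are shown for Rpl41, the row called lower in both mutants, and Rpl4, the row with the most counts. The Rpl41 piece lies at chr10:128549149-128549208 (minus strand) and the Rpl4 piece at chr9:64173347-64173406 (plus strand), both GRCm38.p6, with CTTTC in capitals where it occurs. In the Rpl4 piece it lies before the annotated start, and the pieces show only a part of the bases searched.
Rpl41: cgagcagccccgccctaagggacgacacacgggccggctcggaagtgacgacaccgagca
Rpl4: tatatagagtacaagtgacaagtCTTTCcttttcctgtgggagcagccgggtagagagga

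Genes that work alongside ribosomal proteins are given with the same shares of all tested genes in mind, 3.43% higher and 3.64% lower in Zfp352-KO, and 3.65 and 4.82% in Zfp352/Zfp353-DKO. For calls with the length offset, here and in the next paragraph, the shares were 2.13 and 3.2%, and 3.16 and 5.45%. Fau, which encodes a ribosomal protein fused to a ubiquitin-like protein, and Gnb2l1 (also called Rack1), a scaffold on the small subunit, lie outside the naming rule, and neither was called. Fau had -0.17 ± 0.06 and -0.14 ± 0.06 (edgeR, adjusted p = 0.0831 and 0.155). Of 23 translation factors and other TOP genes, 0 were called in either mutant, and the same held for 7 chaperones of ribosomal proteins and 12 genes of RNA polymerase I. Of 40 ribosome assembly factors, 1 was called higher and 1 lower in Zfp352-KO, and 0 and 3 in Zfp352/Zfp353-DKO. The higher one was Mdn1, an ATPase that remodels pre-60S particles (0.33 ± 0.09, adjusted p = 0.0296). The lower ones were Eif6, which keeps the large subunit from joining (-0.19 ± 0.05 in both mutants, adjusted p = 0.0289 and 0.0246), and in Zfp352/Zfp353-DKO Sbds, which acts in its release (-0.25 ± 0.06, adjusted p = 0.0153), and Nop16 (-0.18 ± 0.05, adjusted p = 0.0453). With the length offset Mdn1 (0.07, adjusted p = 0.303), Nop16 (-0.13, adjusted p = 0.118) and Eif6 in Zfp352-KO (-0.11, adjusted p = 0.0931) were no longer called, Eif6 and Sbds remained so in Zfp352/Zfp353-DKO, and Nop58 in Zfp352-KO (0.14, adjusted p = 0.0325) and Ebna1bp2 in Zfp352/Zfp353-DKO (-0.13, adjusted p = 0.0441) gained a call.

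Of 16 genes of the mTORC1 pathway and MYC, only Myc was called lower, in both mutants (-0.24 ± 0.06, adjusted p = 0.0314, and -0.28 ± 0.06, adjusted p = 0.00986, by edgeR). Its TPM was 53.3, 53.1 and 51.6 in Parental, 47.0, 49.8 and 41.8 in Zfp352-KO, and 43.8, 47.2 and 42.9 in Zfp352/Zfp353-DKO libraries, without overlap between Parental and either mutant. Myc was also called with the length offset, at -0.21 (adjusted p = 0.0347) and -0.26 (adjusted p = 0.00449), and Larp1, which binds TOP messages, was then called lower in Zfp352/Zfp353-DKO (-0.14, adjusted p = 0.00597). Among 77 mitochondrial ribosomal protein genes, 0 were called higher and 2 lower in Zfp352-KO, and 0 and 3 in Zfp352/Zfp353-DKO, with medians of -0.10 and -0.08 that became -0.01 and -0.01 with the offset. Mrpl46 was lower in both (-0.21 ± 0.06 in each, adjusted p = 0.0412 and 0.031), and in neither with the offset (adjusted p = 0.344 and 0.198). With the offset 1 of the 77 was called higher (Mrpl42) and 1 lower (Mrpl17) in Zfp352-KO, while Zfp352/Zfp353-DKO had 0.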

How the data were processed

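RNA of 3 genotypes was sequenced in 9 libraries, 3 per genotype. The submitters' processing notes name STAR 2.7.8a, RSEM 1.3.3, Trim Galore 0.6.6 and the mm10 build. Not given in the sources used here are their settings, the annotation release and whether the strand was used in counting, so reads of overlapping antisense genes cannot be told apart. Per the file headers, the authors deposited an expected count, TPM and FPKM per gene. The expected counts need not be whole, and 30 members had a non-whole value in some library; they were rounded. The deposited TPM show levels, and the deposited FPKM were not used.

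All 24411 rows entered a single fit of 9 libraries by genotype (R 4.3.3, edgeR 4.0.16, TMM, filterByExpr, glmQLFit, glmQLFTest, two-sided), which tested 14300 genes; calls are at an adjusted p (Benjamini-Hochberg, over all of them) under 0.05. The fit was tested on simulated data. The common biological coefficient of variation was 4.95%, and the depth of 16599004 to 22044820 counts sets the counting precision. Alternatives were DESeq2 1.42.0, limma 3.58.1 on log2(TPM + 1), other scalings and filters, a replicate block, a length offset (loess, span 0.3), omission of each library, and, chosen after seeing the data, merged copies and Rpl26 steps. Libraries of a genotype differed by more than counting error, with chi-square per degree of freedom from 2.51 to 7.04, so none was treated as a repeat. Shared windows came from GENCODE transcripts of GRCm38, promoters and gene positions from RefSeq's GRCm38.p6 (mm10 assembly).

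Named were Zfp352, members called in any comparison, all paralogs, copies and the binding protein, the 5 highest and 5 lowest by TPM, by fold change and by spread, ribosomal proteins outside the naming rule (Fau and Gnb2l1; another gene is not reported here), and called members of the companion lists. Rplp0, the members and list genes called under the offset and the other members with non-overlapping libraries, the families, and Rpl22, Rpl36a, Rps4x and other partners were named after their values were seen. The members and lists were chosen with earlier results of these data known. Proteins were not analysed here.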

Additional observations from a re-analysis of the deposited data

Results flagged for a closer look

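Rpl26 was singled out because its change against Parental cells differed between the mutants: the log2 fold change of Zfp352/Zfp353-DKO against Zfp352-KO, which is the difference of their changes against Parental, was 1.59 (edgeR's quasi-likelihood test, adjusted p = 0.0336). It rests on a row with 0.446% of the counts of its family, and the family summed with Gm15772 had 0.03 (adjusted p = 0.974).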

How the results depend on the processing

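The summed share of counts (differences of -0.534, -0.344 and 0.190 percentage points in Zfp352-KO, Zfp352/Zfp353-DKO and between the mutants) stayed within the SD of libraries under every alternative run, but that spread is as large as the differences: leaving out a library gave -0.791 (without Zfp352-KO 3) to -0.309 (without Zfp352-KO 1), -0.549 (without Zfp352/Zfp353-DKO 1) to -0.066 (without Zfp352/Zfp353-DKO 3), and -0.035 (without Zfp352-KO 1) to 0.469 (without Zfp352/Zfp353-DKO 3), the last also turning sign without Zfp352/Zfp353-DKO 1 (-0.014) and reaching 0.447 without Zfp352-KO 3; the share of TPM gave 0.322, and omission of Parental 2 gave -0.224 in Zfp352/Zfp353-DKO. The median log2 fold change of members (-0.077, -0.048 and 0.026) turned to 0.041 and 0.050 against Parental with the length offset, and to 0.040 and 0.050 with that offset and the replicate block; between the mutants both gave 0.010. Limma on TPM gave -0.030 and -0.009. Leaving out a library gave -0.103 (without Zfp352-KO 3) to -0.037 (without Parental 2; -0.045 without Zfp352-KO 1), -0.082 (without Zfp352/Zfp353-DKO 1; -0.079 without Parental 3) to -0.004 (without Zfp352/Zfp353-DKO 3; -0.012 without Parental 2), and -0.012 (without Zfp352/Zfp353-DKO 1; -0.010 without Zfp352-KO 1) to 0.066 (without Zfp352-KO 3; 0.065 without Zfp352/Zfp353-DKO 3; 0.012 without Zfp352/Zfp353-DKO 2). Members called (2, 1 and 1) became, in Zfp352-KO, 5 without a filter, 4 with the length offset, 1 with merged copies (chosen after seeing the data) and 1 to 6 on leaving out a library; in Zfp352/Zfp353-DKO, 0 with the replicate block or limma on TPM and 0 to 1 on leaving out a library; between the mutants, 0 with DESeq2, limma or merged copies and 0 to 1 on leaving out a library. Genes called over the whole table (1010, 1211 and 15) became, in Zfp352-KO, 569 with the replicate block, 584 with block and offset, 359 with limma and 210 to 1552 on leaving out a library; in Zfp352/Zfp353-DKO, 578 with limma and 449 (without Parental 1) to 1337 on leaving out a library; between the mutants, 66 without a filter, 42 with the offset, 23 with block and offset, 27 with DESeq2, 1 with limma and as few as 3 on leaving out a library. The cause was not tested. Where an omission left 2 libraries in a group, the spread was shared with the other groups. Of 9 same-numbered pairs of libraries, 1 deviated together with a correlation over 0.1, so the numbers were not taken to pair them, although 6 of 9 libraries correlated best with their own number. Of single named genes, 2403 alternative values kept their side of the threshold with no called value reversed, 142 lost a call and 21 gained one. The 2403 include genes that were uncalled in both fits, so they do not measure how often a call held. Low counts limit rows such as Rpl26 and Rps27.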
